A study of Mus musculus with 52 samples.

Results

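The promoters described here belong to 54 mouse genes of the Wnt pathway, and they were followed by calibrated ATAC-seq (cATAC-seq) in conditional mouse embryonic stem cells (mESCs). ATAC-seq inserts adapters into open chromatin with Tn5, and Drosophila SG4 cells mixed into each sample give a reference for scaling. The genes were chosen by gene symbol, and the group was selected on a measured value, the fall of the Rspo4 promoter in the Kdm2a/b-JmjC line, which was known beforehand. The 54 genes have 62 promoters among the 20633 that were measured, because 7 of the genes have more than 1 annotated promoter, which are named here with their RefSeq transcript. All 62 were found, each as an interval of 400 bp with its annotated start inside, and none of these intervals overlapped another.

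Wnt proteins are secreted lipid-modified ligands that bind Frizzled receptors together with the co-receptors LRP5 or LRP6. Binding stops the AXIN and APC destruction complex from degrading beta-catenin, which then enters the nucleus and acts with TCF/LEF factors on target genes. The ligases ZNRF3 and RNF43 clear Frizzled receptors from the cell surface, and R-spondins, bound to LGR receptors, block these ligases and so raise the response. In mESCs this pathway supports self-renewal and, later, the formation of mesoderm.

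The cells came from 4 lines, all of which carry floxed alleles and a tamoxifen-inducible CRE recombinase at the Rosa26 locus, so the untreated controls carry both as well. In Kdm2a/b-JmjC cells, which were derived from mice, tamoxifen deletes exons for the JmjC demethylase domain, and the long forms of KDM2A and KDM2B are lost while the short forms remain. In Kdm2a/b-CXXC cells the CpG-binding ZF-CxxC domain is deleted from both proteins. The Kdm2a-CXXC cells lose it from KDM2A alone and the Kdm2b-CXXC cells from KDM2B alone. The Kdm2a/b-CXXC line is a clone made by gene editing from the Kdm2b-CXXC line. Kdm2a-CXXC is likewise an edited clone, made from mESCs that held the recombinase. Each line was compared untreated and after 800 nM 4-hydroxytamoxifen for 96 h, with 4 libraries per group in Kdm2a/b-CXXC and 3 per group in each other line, 26 libraries in all. The samples include no treated cells without floxed alleles. Effects of the drug or of active CRE therefore cannot be told apart from those of the deletions.

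A library held between 1.49 and 3.03 M promoter reads (M, 1000000) and a median of 58 to 108 reads per promoter, so promoters with low values carry a wide counting error. Values within a line are calibrated reads, the reads in the 400 bp interval over a size factor that the spike-in gives for each library. The study calls its replicates biological, and whether they were separate cultures is not stated in the sources used here, so the tests measure the spread between these libraries. Of 10 mESC marker genes 9 were found, and their 10 promoters had median levels between 78.4 and 163 calibrated reads in the untreated cells of the 4 lines. Promoters of primitive endoderm, fibroblast and neural markers had medians of 48.3 to 68.2, 28.4 to 35.1 and 86.2 to 128 calibrated reads. The lowest marker mean was 2.72 calibrated reads, at Dab2 (NM_001008702) in Kdm2a/b-JmjC, and Col3a1 was the lowest fibroblast marker in every line, at 3.91 to 11.1. Access at a promoter is not expression, and a contribution of other cells was not tested.

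The promoters differ widely in CpG content, and 5 of them are shown because they span that range and the range of accessibility. Each sequence is the 200 bases before the annotated start, on the strand of the gene, read from the GRCm38.p6 reference (mm10). Capitals mark CG dinucleotides. Rspo4 encodes an R-spondin, Fzd5 a Frizzled receptor, and Wnt4 and Wnt16 are ligands. Znrf3 (NM_001290501) is a promoter of a gene for a receptor-clearing ligase.
Rspo4, chr2:151842727-151842926, plus strand: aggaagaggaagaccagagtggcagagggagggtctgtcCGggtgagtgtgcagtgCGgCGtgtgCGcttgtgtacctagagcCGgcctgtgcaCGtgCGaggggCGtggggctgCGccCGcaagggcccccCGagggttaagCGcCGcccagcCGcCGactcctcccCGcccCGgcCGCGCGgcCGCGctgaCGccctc
Fzd5, chr1:64737751-64737950, minus strand: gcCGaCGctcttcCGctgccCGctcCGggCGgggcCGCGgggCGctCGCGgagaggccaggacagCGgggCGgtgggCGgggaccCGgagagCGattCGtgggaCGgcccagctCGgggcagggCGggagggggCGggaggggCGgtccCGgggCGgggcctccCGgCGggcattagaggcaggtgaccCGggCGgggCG
Wnt4, chr4:137277435-137277634, plus strand: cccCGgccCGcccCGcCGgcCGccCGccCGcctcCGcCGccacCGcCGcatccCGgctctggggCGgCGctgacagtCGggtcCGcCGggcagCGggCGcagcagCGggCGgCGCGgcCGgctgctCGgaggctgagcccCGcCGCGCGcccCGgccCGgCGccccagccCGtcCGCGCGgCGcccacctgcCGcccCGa
Wnt16, chr6:22288027-22288226, plus strand: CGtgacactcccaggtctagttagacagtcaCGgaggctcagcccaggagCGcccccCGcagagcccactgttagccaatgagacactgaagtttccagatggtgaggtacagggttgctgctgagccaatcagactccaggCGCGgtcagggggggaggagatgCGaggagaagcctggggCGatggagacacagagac
Znrf3 (NM_001290501), chr11:5381741-5381940, minus strand: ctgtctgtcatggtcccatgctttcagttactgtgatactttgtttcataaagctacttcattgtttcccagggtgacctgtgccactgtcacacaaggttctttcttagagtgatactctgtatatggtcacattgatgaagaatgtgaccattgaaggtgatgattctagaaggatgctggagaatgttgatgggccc
These stretches hold 23 CG dinucleotides in Rspo4, 29 in Fzd5, 39 in Wnt4, 8 in Wnt16 and 0 in Znrf3 (NM_001290501). Wnt4 has the densest CG sequence of the 5 shown, yet its accessibility was among the low values given below.

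Levels were compared across promoters as reads per 1000000 promoter reads (RPM), averaged over the untreated libraries of each line and then over the 4 lines. All intervals are of the same length, so these levels can be set side by side. The lines have separate tables, and the averages over them are given as descriptions. Over the 62 promoters the median level was 35.6 RPM, which lies beside 39.6 over all promoters. Of the 62, 48 were CpG-rich (50% GC or more, with an observed CG count of at least 0.6 of that expected), or 77.4%, against 54.6% of all promoters. The CpG-rich promoters of the group had a median of 40.1 RPM, and CpG-rich promoters as a whole had 69.6. The 14 others had a median of 15.9, against 6.72 for all promoters that were not CpG-rich.

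Ligand promoters were mostly at the low end. Among the 24 promoters of Wnt ligand genes the median was 24.6 RPM, 5 lay above the median of all promoters and 0 lay above 90% of all promoters. Restricting this to the 17 CpG-rich ligand promoters left the median at 24.6. The exceptions had different sequence content. Wnt9b reached 83.9 RPM with 47 CG dinucleotides in its 400 bp interval, Wnt9a 68.9 with 77, and Wnt3, a ligand of the beta-catenin branch, 56.5 with 25. Wnt16 had 52.1 with only 11 CG dinucleotides, and Wnt5b (NM_001271757) had 42.4 with 14. In contrast Wnt4, with 66 CG dinucleotides, had 18.9. The lowest promoters of the group were Wnt5b (NM_001271758) at 5.87 and Wnt8b at 6.48.

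Receptor promoters were mostly higher than those of the ligands. All 10 Frizzled promoters were CpG-rich, with a median of 63.4 RPM, beside 69.6 for all CpG-rich promoters. Of the 10, 8 lay above the median of all promoters, as did 9142 of all 11262 CpG-rich promoters. Fzd5 had 165, Fzd7 135 and Fzd2 118, and these 3 lay above 90% of all promoters, while Fzd8 was lowest at 27.1. Among the co-receptors and R-spondin receptors, Lgr4 had 154 and Lrp6 79.7, followed by Lgr6 at 42.4, Lgr5 at 41.4 and Lrp5 at 35.4. The R-spondin promoters lay close together, with Rspo3 at 28.3, Rspo2 at 30.6, Rspo1 at 33.7 and Rspo4 at 35.0, and 0 of these 4 lay above the median of all promoters.

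Levels of the remaining components varied both between and within roles. Axin1 and Axin2, scaffolds of the destruction complex, had 143 and 113 RPM, Ctnnb1 (beta-catenin) had 94.1 and Apc 71.5. All 4 were CpG-rich and lay above the median of all promoters, as most CpG-rich promoters did. Of 6 promoters of nuclear factors, 2 lay above that median. These were Tcf7l2 (NM_001142918) with 71.6 and Tcf7l1, a repressor of Wnt targets in mESCs, with 54.96. The promoters of Lef1 (NM_001276402) and Tcf7 had 35.7 and 31.5. Among the secreted antagonists, Sfrp1 had 69.9 and Sfrp2 57.6, and Dkk2 had 11.3. Znrf3 (NM_001080924) was the most accessible of all 62, at 172 RPM and above 99.1% of all promoters, while Rnf43, its relative, had 15.1 and is not CpG-rich.

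**Figure D1:**
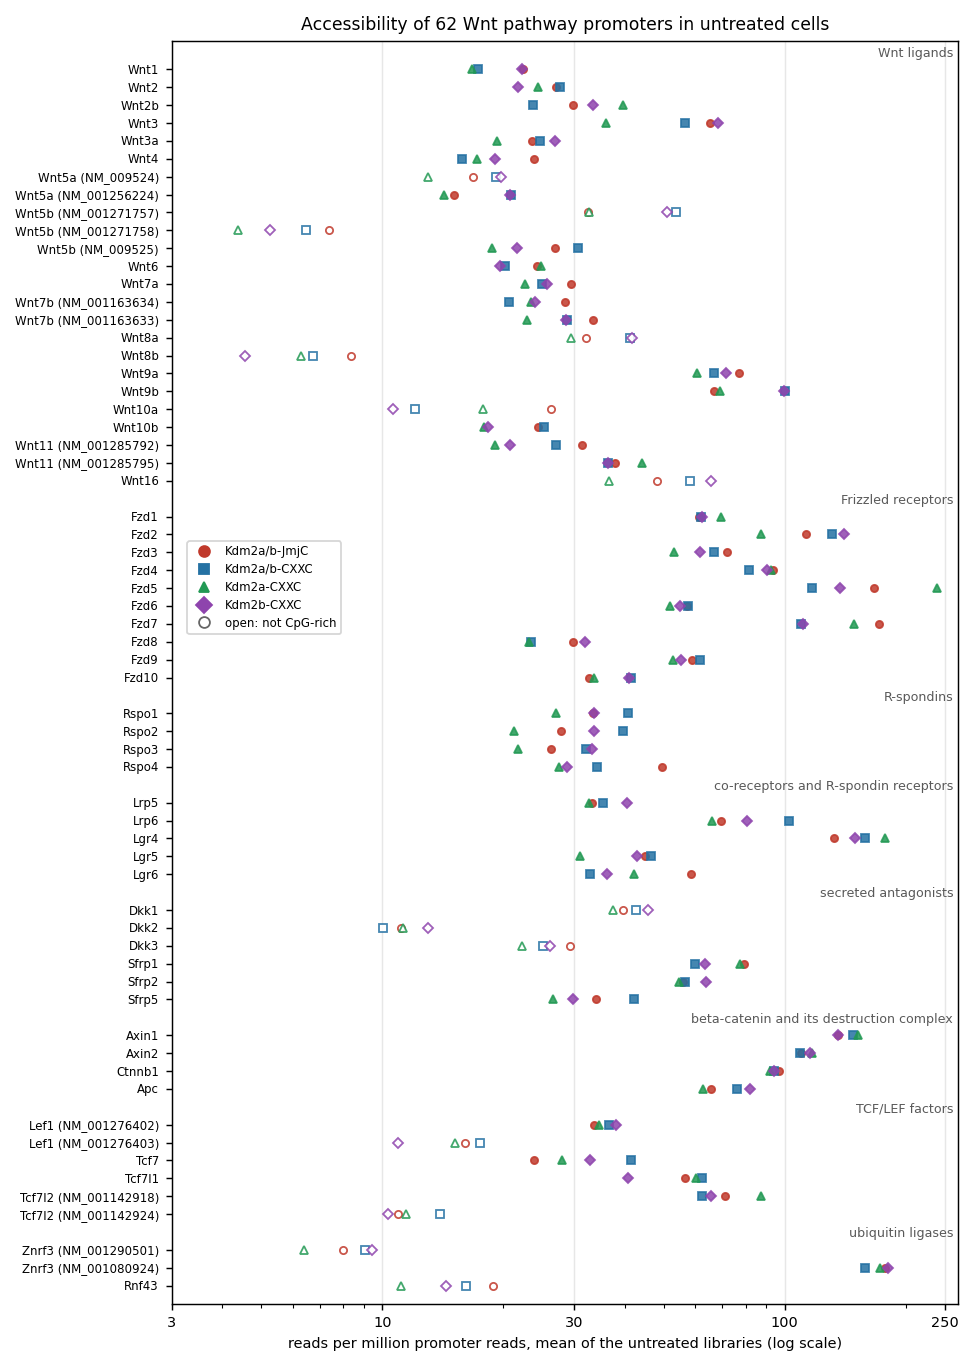
Level of each of the 62 promoters, in RPM on a log axis, as the mean of the untreated libraries of each line (colour and shape), grouped by role. Open symbols are promoters that are not CpG-rich. Ligand promoters sit mostly to the left, with a median of 24.6, and Frizzled promoters to the right, with a median of 63.4.

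Genes with several promoters differed between them in the same cells. The Znrf3 promoters lie 63107 bp apart, and NM_001080924, with 62 CG dinucleotides, was higher than NM_001290501, with 1, in 26 of 26 libraries. In the 4 lines the ratio of their untreated levels was between 17.5 and 27.0. At Tcf7l2 the CpG-rich promoter NM_001142918 had 71.6 RPM and NM_001142924 had 11.7, with line ratios of 4.47 to 7.65. At Lef1 the values were 35.7 and 14.9, and the order was again the same in 26 of 26 libraries. At Wnt7b the promoters had 28.5 and 24.1, the first being higher in 21 of 26 libraries. Wnt11 and a pair of the 3 Wnt5b promoters went the other way in sequence. At Wnt11, NM_001285795, with 38 CG dinucleotides, had 38.8 and NM_001285792, with 57, had 24.6, in this order in 25 of 26 libraries. At Wnt5b, NM_001271757, with 14 CG dinucleotides, was higher than NM_009525, with 66 CG dinucleotides and 24.5 RPM. The remaining Wnt5b promoter, NM_001271758, had the fewest CG dinucleotides, 5, and the lowest level, 5.87. It was below NM_001271757 in 26 of 26 libraries. The promoters of Wnt5a lay close together, at 17.7 and 17.2, with 34 and 15 CG dinucleotides, and the first was higher in 17 of 26 libraries.

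Some ligand genes lie next to each other. Wnt3a and Wnt9a, on chromosome 11, start 16179 bp apart on opposite strands, and Wnt9a was higher in 26 of 26 libraries, at 68.9 against 23.6 RPM. Wnt3 and Wnt9b, 24354 bp apart on the same chromosome, had 56.5 and 83.9, and Wnt9b was higher in 25 of 26. Wnt6 and Wnt10a on chromosome 1 had 22.2 and 16.7, and Wnt1 and Wnt10b on chromosome 15 had 19.6 and 21.4. In the last 2 pairs neither promoter was higher throughout, the second being higher in 8 and 11 of 26 libraries.

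Across the 62 promoters, the number of CG dinucleotides and the level had a Spearman correlation of 0.41, against 0.75 over all promoters. Within the 48 CpG-rich promoters it was 0.11, and within all CpG-rich promoters 0.084. These correlations are across promoters of the same libraries, which share depth and base composition effects, and are given as descriptions.

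**Figure D2:**
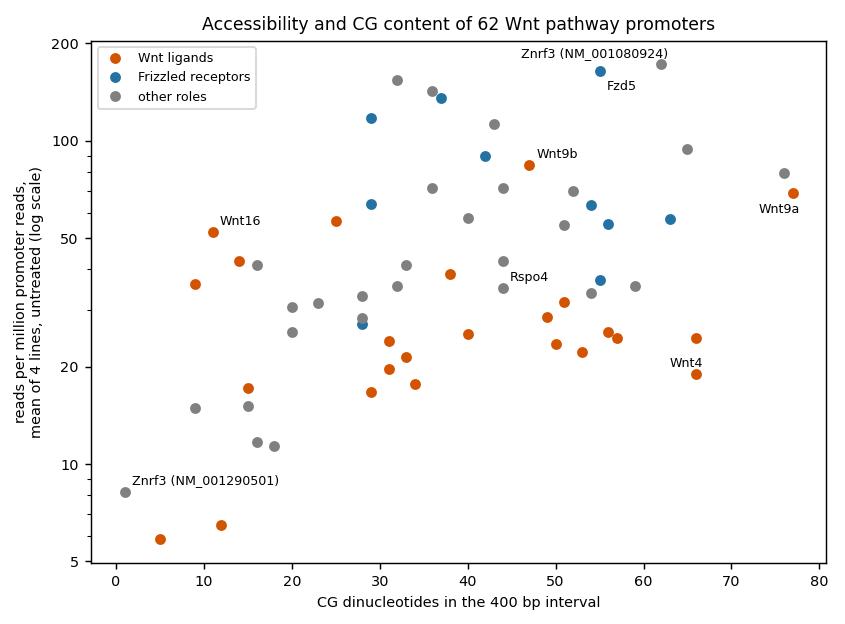
CG dinucleotides in the 400 bp interval (x axis) against the level in RPM, mean of 4 lines without treatment (y axis, log scale), for 62 promoters, with ligands in orange, Frizzled receptors in blue and other roles in grey. Wnt4 with 66 CG dinucleotides sits at 18.9, below Wnt16 with 11 at 52.1, and the Znrf3 promoters lie far apart, at 172 and 8.21.

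TCF/LEF factors bind words of the form CTTTGAA or CTTTGAT. Searched on both strands, 6 of the 62 intervals (9.68%) held one of these words, against 7.92% of all promoters. They were Axin2, Dkk1, Wnt8a, Tcf7l2 (NM_001142918), Wnt5b (NM_001271757) and Wnt11 (NM_001285792). Axin2 and Dkk1 are well-known targets of the pathway. The word began 78 bases after the start in Axin2 and 86 after it in Tcf7l2 (NM_001142918), and at -117, -71 and -51 relative to the start in Dkk1, Wnt5b (NM_001271757) and Wnt11 (NM_001285792). A match is a description of the letters.

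The Rspo4 promoter was the value on which the group was selected, so its change in Kdm2a/b-JmjC is described and not tested. The 3 untreated libraries had 109.5, 82.5 and 79.7 calibrated reads, and the 3 treated libraries had 47.0, 34.5 and 48.1. Every treated value was lower than every untreated value, and the means were 90.6 ± 16.5 and 43.2 ± 7.57 (SD, n = 3 each), so that log2 of the fold change was -1.05 ± 0.22 (SE). As counted reads the same libraries held 97, 91 and 87 without treatment and 44, 44 and 47 with it. The untreated level of this line was itself the highest of the 4. In RPM it was 49.5 ± 9.61 (SD, n = 3) in Kdm2a/b-JmjC, 34.2 ± 6.79 (SD, n = 4) in Kdm2a/b-CXXC, 27.6 ± 3.99 (SD, n = 3) in Kdm2a-CXXC and 28.7 ± 2.52 (SD, n = 3) in Kdm2b-CXXC. The mean after tamoxifen in Kdm2a/b-JmjC, 27.2 RPM, lay beside the untreated means of the single-protein lines. A fall in a bulk library can come from fewer cells with an open promoter or from less access in each, and these cannot be told apart here.

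In the 3 CXXC lines the Rspo4 promoter showed no such fall. In Kdm2a/b-CXXC the untreated libraries had 60.3, 43.8, 45.0 and 57.1 calibrated reads, and the treated ones had 55.2, 67.0, 49.9 and 49.0. The groups overlapped, with 0.10 ± 0.23 (SE) as log2 fold change (limma adjusted p = 0.996). For Kdm2a-CXXC the values were 59.2, 72.3 and 58.8 before and 51.4, 67.7 and 96.4 after tamoxifen, where 1 treated library stood above all others, and the log2 fold change was 0.14 ± 0.23 (SE; limma adjusted p = 0.818). It was -0.096 without Kdm2a-CXXC tamoxifen replicate 3. In Kdm2b-CXXC they were 92.2, 50.3 and 55.3 before and 103.1, 46.3 and 71.0 after, at a log2 fold change equal to 0.13 ± 0.37 (SE; limma adjusted p = 1.000). This line had the widest spread, and its value turned negative without untreated replicate 2 (-0.033) or without tamoxifen replicate 1 (-0.15). The difference in the change between Kdm2a/b-CXXC and Kdm2a-CXXC was -0.036 ± 0.34 (SE) on the log2 scale (limma adjusted p = 0.967). Against Kdm2b-CXXC it was -0.032 ± 0.41 (SE; limma adjusted p = 1.000), and between Kdm2a-CXXC and Kdm2b-CXXC it was 0.0044 ± 0.43 (SE; limma adjusted p = 0.998).

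**Figure D3:**
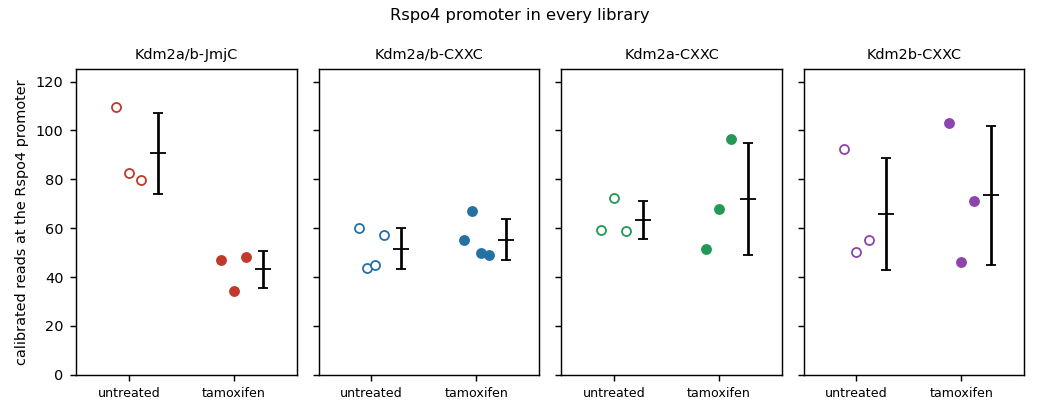
Calibrated reads at the Rspo4 promoter (y axis) in every library of the 4 lines, untreated (open) and after tamoxifen (filled), with the mean and SD as bars beside the points. In Kdm2a/b-JmjC the 3 treated libraries (34.5 to 48.1) lie below the 3 untreated ones (79.7 to 109.5), and in the other lines the groups overlap.

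The remaining promoters in Kdm2a/b-JmjC come from the contrast that chose the group and are also described without a test. Both a limma adjusted p under 0.05 and more than a 1.4-fold difference were required, which 13 of 17174 tested promoters passed (0.0757%). With DESeq2 and the same thresholds, the study itself reported no CpG island promoter with changed accessibility in this line. Rspo4, on which the group was chosen, was 1 of the 13 and the only one among the 62, and nothing is read from this. It was not among them with TMM scaling or DESeq2, nor when untreated replicate 1, untreated replicate 2 or treated replicate 2 was left out, where its log2 fold change was -0.91, -1.11 and -0.90. The members had a median log2 fold change of -0.31, and 54 were lower and 8 higher, while all tested promoters had a median of -0.21 and 83.4% were lower. Just short of the threshold was Wnt9a, a ligand, with 159.2, 160.5 and 105.4 calibrated reads before and 74.7, 81.4 and 103.3 after tamoxifen, a log2 fold change of -0.69 ± 0.18 (SE). Its groups were separated by a narrow gap between 103.3 and 105.4.

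The 3 further promoters named in this line belong to a nuclear factor, a receptor and a ligase. Tcf7l2 (NM_001142918) had 141.2, 136.9 and 112.7 calibrated reads before and 90.8, 83.0 and 78.8 after tamoxifen (log2 fold change -0.62 ± 0.18, SE). Lgr5, an R-spondin receptor and stem cell marker, had 70.0, 92.5 and 85.2 before and 51.2, 50.1 and 49.1 after (-0.70 ± 0.22, SE). Znrf3 (NM_001080924) had 280.1, 368.1 and 330.9 before and 253.0, 240.4 and 246.6 after (-0.39 ± 0.12, SE). In all 3 the groups did not overlap, as was so for 16 of the 62 promoters in this line, all of them lower, beside 23.2% of all tested promoters.

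The median of all promoters fell in this line on the spike-in scale, and scaling by the bulk of promoters (TMM) moves it from -0.21 to -0.0027 and the members' median to -0.10. With TMM the log2 fold change was -0.85 at Rspo4, -0.48 at Wnt9a, -0.41 at Tcf7l2 (NM_001142918), -0.49 at Lgr5 and -0.18 at Znrf3 (NM_001080924), so these 5 kept their direction. The direction differed between both scalings at 15 of the 62 promoters. No promoter passed both thresholds with TMM in this line. The other R-spondin promoters had log2 fold changes of -0.28 at Rspo1, -0.13 at Rspo2 and -0.18 at Rspo3. The last changed sign with TMM to 0.022, and Rspo2 to 0.078.

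The Kdm2a/b-CXXC line asks whether these promoters moved after tamoxifen, with both proteins lost from CpG islands, and no member passed. With limma, 0 of 61 tested members and 0 of 16413 promoters (0%) were past both thresholds, and 17 promoters were with TMM. An unadjusted p under 0.05 with a higher value was found for 1 member and 3.58% of all promoters, and with a lower value for 0 members and 1.07% of all. By edgeR and DESeq2, 0 members passed as well. The members' median log2 fold change was 0.072, beside 0.087 over all promoters, and 42 were higher and 19 lower. Wnt8b did not pass the filter on low reads and was not tested, with means of 10.4 ± 6.86 and 8.38 ± 6.95 calibrated reads (SD, n = 4 each).

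The member with the smallest unadjusted p in this line was Wnt2b, a ligand. It had 30.6, 34.9, 27.2 and 50.3 calibrated reads before and 60.8, 58.6, 53.8 and 48.1 after tamoxifen, and 1 untreated library lay above the lowest treated one (log2 fold change 0.65 ± 0.24, SE; limma adjusted p = 0.996). Wnt4, with the dense CG sequence shown above, had 22.7, 24.9, 29.99 and 18.4 before and 37.2, 32.3, 36.2 and 30.5 after. These groups did not overlap, the only such case among the 61 tested members of this line, beside 1.8% of all tested promoters with all treated libraries the higher ones, and their log2 fold change was 0.50 ± 0.29 (SE; adjusted p from limma 0.996). Wnt10a, another ligand, had 12.8, 28.9, 20.6 and 11.6 before and 28.2, 29.7, 24.5 and 25.7 after (0.61 ± 0.32, SE; limma adjusted p = 0.996), and the highest untreated library lay within the treated range. Fzd1, a Frizzled receptor, had 96.8, 95.7, 118.1 and 66.8 before and 191.4, 129.9, 70.4 and 116.4 after (0.37 ± 0.20, SE; limma adjusted p = 0.996). The treated and untreated ranges of Fzd1 overlap, and all 4 of these promoters kept their direction with TMM.

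In Kdm2a-CXXC, where KDM2A alone loses its ZF-CxxC domain, most members were lower, as were most promoters. The median was -0.24 over the 62 tested members and -0.18 over all 17727 tested promoters, and 55 members and 81.2% of all promoters were lower. With limma, 0 members and 0 promoters (0%) passed both thresholds, and edgeR and DESeq2 also called 0 members. An unadjusted p under 0.05 with a lower value was found for 8 members and 8% of all promoters, and with a higher value for 0 members and 0.395% of all. With TMM the median of all promoters was -0.0029, that of the members -0.067, and 13 of the 62 changed direction.

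The promoters with the smallest unadjusted p in this line were those of 2 receptors, a ligase and a nuclear factor. Fzd5, the most accessible Frizzled promoter, had 508.2, 517.7 and 637.2 calibrated reads before and 333.8, 418.0 and 501.3 after tamoxifen, and the treated values were all the lower ones (log2 fold change -0.42 ± 0.16, SE; limma adjusted p = 0.581). Znrf3 (NM_001080924) had 352.5, 384.5 and 462.0 before and 239.7, 317.3 and 350.3 after (-0.41 ± 0.17, SE; limma adjusted p = 0.581). Fzd8 had 51.6, 58.6 and 49.6 before and 29.6, 27.1 and 48.2 after (-0.64 ± 0.27, SE; limma adjusted p = 0.581). Tcf7l2 (NM_001142918) had 186.3, 237.5 and 180.3 before and 135.1, 147.1 and 159.9 after (-0.44 ± 0.19, SE; limma adjusted p = 0.581). In calibrated reads the groups of these 4 promoters did not overlap, and at Fzd8 the gap was narrow, between 48.2 and 49.6. Groups did not overlap for 14 of the 62, all lower, beside 13.4% of all tested promoters. In RPM the groups of Fzd8 and Tcf7l2 (NM_001142918) overlapped, while those of Fzd5 and Znrf3 (NM_001080924) did not. With TMM the log2 fold changes of these 4, in the order given first, were -0.24, -0.23, -0.46 and -0.26. All 10 Frizzled promoters were lower on the spike-in scale, with a median of -0.33 that became -0.15 with TMM. So were all 5 co-receptor and R-spondin receptor promoters, all 6 of secreted antagonists and 81.2% of all tested promoters.

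In Kdm2b-CXXC, where KDM2B alone loses its ZF-CxxC domain, the replicates lay far apart. The median per library of the log2 ratio to the untreated mean ran from -0.32 to 0.39 over the untreated libraries and from -0.11 to 0.51 over the treated ones. Replicate 1 was highest in both groups, and the medians over all promoters of these libraries were 0.41 and 0.53. The members' median log2 fold change was 0.13 and that of all 17930 tested promoters 0.099, and 48 members were higher and 14 lower. With limma, 0 members and 0 promoters (0%) passed both thresholds, and edgeR and DESeq2 called 0 members. An unadjusted p under 0.05 was found for 0 members, and for 0.519% of all promoters with a higher and 0.151% with a lower value. With TMM it was found for 4 members, 3 lower and 1 higher, and for 1388 promoters, beside 120 on the spike-in scale.

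On the spike-in scale, the promoters of this line with the smallest unadjusted p all had overlapping groups. Znrf3 (NM_001290501), the promoter with no CG in the stretch shown, had 39.2, 20.5 and 7.0 calibrated reads before and 46.0, 22.7 and 21.2 after tamoxifen (log2 fold change 0.61 ± 0.46, SE; limma adjusted p = 1.000), and the value was -0.014 without untreated replicate 3. Wnt5a (NM_009524) went from 44.2 ± 10.1 to 32.2 ± 8.74 (SD, n = 3 each; log2 fold change -0.45 ± 0.40, SE). Wnt5b (NM_009525) went from 49.0 ± 12.0 to 65.7 ± 19.4 (SD, n = 3 each; 0.41 ± 0.37, SE). Tcf7 went from 73.0 ± 11.6 to 95.5 ± 14.1 (SD, n = 3 each; 0.38 ± 0.36, SE), and each of these had a limma adjusted p = 1.000. These directions were the same with TMM, at 0.52, -0.55, 0.31 and 0.29. In RPM the groups of Wnt5a (NM_009524) did not overlap, at 17.2 to 23.2 before and 12.4 to 14.3 after tamoxifen. Nor did those of Wnt5b (NM_009525), at 20.3 to 24.1 before and 25.9 to 27.5 after. The groups of Tcf7 and Znrf3 (NM_001290501) overlapped in RPM as well.

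**Figure D4:**
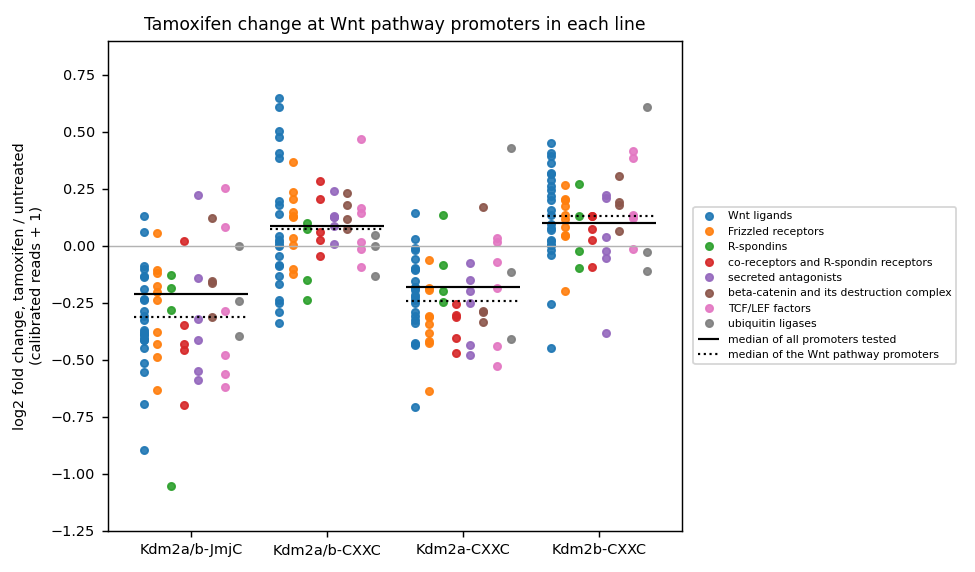
Log2 fold change of tamoxifen over untreated, on log2(calibrated reads + 1), for each tested member in each line, coloured by role. The solid line is the median of all tested promoters and the dotted line that of the members, and from left to right these pairs are -0.21 and -0.31, 0.087 and 0.072, -0.18 and -0.24, 0.099 and 0.13.

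Whether the tamoxifen change differed between the CXXC lines was tested directly. Between Kdm2a/b-CXXC and Kdm2a-CXXC, 0 of 62 members and 0% of 18356 promoters had a limma adjusted p under 0.05, and an unadjusted p under 0.05 was found for 8 members and 8.36% of all promoters. The members' median difference was 0.32, beside 0.27 over all promoters. The member with the smallest p was Wnt2b, which was 1.08 ± 0.34 (SE) higher on the log2 scale in Kdm2a/b-CXXC (limma adjusted p = 0.508), followed by Fzd1 with 0.79 ± 0.28 (SE; limma adjusted p = 0.590). Between Kdm2a/b-CXXC and Kdm2b-CXXC, 0 members and 0% of 18375 promoters passed, and 0 members and 0.871% of all had an unadjusted p under 0.05. Between Kdm2a-CXXC and Kdm2b-CXXC, 0 members and 0% of 19326 promoters passed, and 1 member and 2.14% of all had an unadjusted p under 0.05. That member was Tcf7, with a difference of -0.91 ± 0.44 (SE; limma adjusted p = 0.939). For all 3 comparisons edgeR also found 0 members at an adjusted p under 0.05. The result between Kdm2a-CXXC and Kdm2b-CXXC depended on the model. With the replicate number as a block in limma, Axin2 and Fzd5 had an adjusted p under 0.05 there. In that fit 15 members and 4279 of the 19326 promoters had an unadjusted p under 0.05.

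Of 42 further pathway genes (Dishevelled, GSK3, TLE and planar polarity genes among them), 41 were found, with 45 promoters. In each line 0 of those tested passed both thresholds in either direction by limma. An unadjusted p under 0.05 was found for 7 lower in Kdm2a/b-JmjC, beside 20.3% of all promoters. It was found for 2 higher in Kdm2a/b-CXXC (3.58% of all), 3 lower in Kdm2a-CXXC (8% of all) and 0 in Kdm2b-CXXC. In the same order of lines their median log2 fold changes were -0.21, 0.11, -0.14 and 0.071. Their most accessible promoter in every line was Gsk3b, which encodes a kinase of the destruction complex, at 308 to 583 calibrated reads. The 10 promoters of beta-catenin targets outside the group, Myc and Cdx2 among them, likewise held 0 past both thresholds in each line, and 2 of 10 in Kdm2a/b-JmjC (beside the same 20.3% of all) and 0 in the other lines had an unadjusted p under 0.05. Myc was the highest of them, at 178 to 296 calibrated reads.

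The untreated level of some members differed between lines. Wnt3 had 36.0 ± 6.13 RPM (SD, n = 3) in untreated Kdm2a-CXXC cells and 56.4 to 68.3 in the other lines, and all 6 Kdm2a-CXXC libraries (30.1 to 44.6) lay below all libraries of the other lines (47.8 to 78.1). Lrp6 had 102.7 ± 10.96 (SD, n = 4) in untreated Kdm2a/b-CXXC cells, and the 8 libraries of this line (91.8 to 117.8) lay above all others (51.6 to 90.5). These were the only promoters of the 62 for which 1 line lay apart in all libraries, which was so for 4.75% of the 16977 promoters with a mean level over 5 RPM. Over 1513 promoters of chromosome 11, which holds Wnt3, the median log2 ratio of Kdm2a-CXXC to the mean of the other lines was -0.057. For Kdm2a/b-CXXC the median of this ratio was 0.17 over 861 promoters of chromosome 6, which holds Lrp6. Each line has its own set of libraries, so a difference of line and one of processing cannot be told apart.

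The line differences of members on chromosome 1 are given beside those of the whole chromosome. In untreated cells Fzd5 had 239 ± 14.7 RPM (SD, n = 3) in Kdm2a-CXXC, 166 ± 13.9 (SD, n = 3) in Kdm2a/b-JmjC, 137 ± 5.49 (SD, n = 3) in Kdm2b-CXXC and 117 ± 12.8 (SD, n = 4) in Kdm2a/b-CXXC. Fzd7 had 172 ± 6.48 (SD, n = 3) in Kdm2a/b-JmjC and 149 ± 6.75 (SD, n = 3) in Kdm2a-CXXC, against 111 ± 20.7 (SD, n = 3) and 110 ± 7.01 (SD, n = 4) in Kdm2b-CXXC and Kdm2a/b-CXXC. The latter values do not differ beyond their spread. Lgr6, a further R-spondin receptor, was highest in Kdm2a/b-JmjC at 58.6 ± 8.92 (SD, n = 3), and so was Wnt10a at 26.2 ± 7.53 (SD, n = 3). Over 1021 promoters of chromosome 1, the median log2 ratio of a line to the mean of the other lines was 0.36 in Kdm2a/b-JmjC, 0.031 in Kdm2a-CXXC, -0.25 in Kdm2a/b-CXXC and -0.26 in Kdm2b-CXXC. Less this median, the ratio at Fzd7 was between -0.14 and 0.15 in the 4 lines, while Fzd5 kept 0.74 in Kdm2a-CXXC and Wnt10a 0.60 in Kdm2a/b-JmjC. Rspo4 lies on chromosome 2, where the median in Kdm2a/b-JmjC was -0.032, and its own ratio was 0.72.

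**Figure D5:**
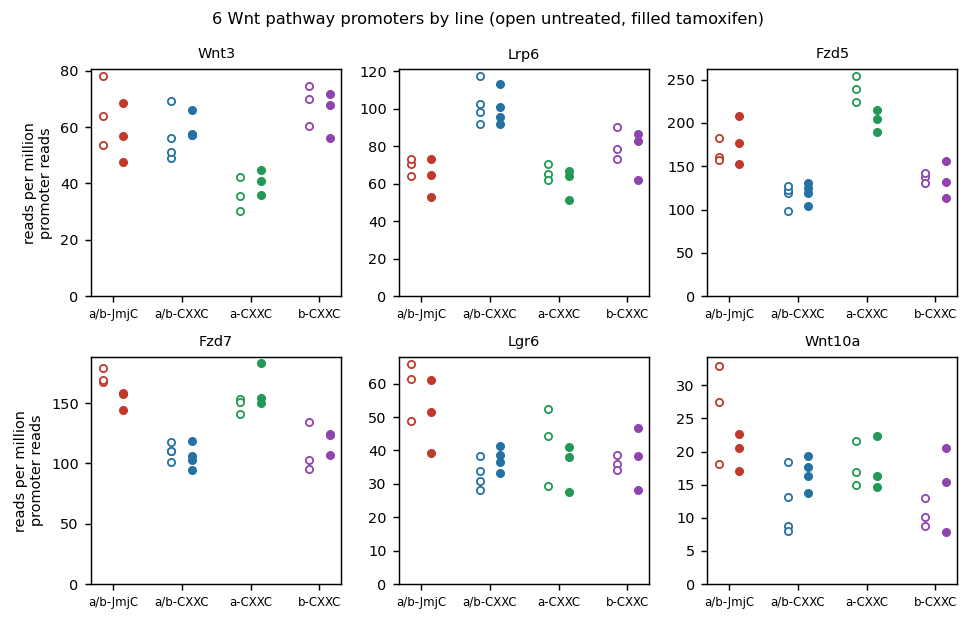
RPM (reads per 1000000 promoter reads, y axis, from 0) at 6 promoters in every library, by line, untreated (open) and after tamoxifen (filled). Wnt3 is lowest in Kdm2a-CXXC (30.1 to 44.6), Lrp6 highest in Kdm2a/b-CXXC (91.8 to 117.8), and Fzd5 in Kdm2a-CXXC spans 190.0 to 254.2; these 6 were chosen after their values were seen.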

How the data were processed

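Calibrated ATAC-seq was analysed from 26 libraries, and the 26 input DNA samples (2 with labels that conflict) were not used here. The authors aligned reads with Bowtie 2 to mm10 and dm6, removed duplicates with SAMtools and counted mouse reads in promoter intervals. Each deposited column is a signal: reads divided by a size factor from fly reads, corrected by the matched genomic DNA, and supplied to DESeq2. Versions are not given in the sources used here. The deposited means, fold changes, standard errors, scores and p-values of the authors were not used.

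Size factors (0.718 to 1.41) were recovered from the steps between values, and 100% of values came out as whole reads within a tolerance of 0.01. The main test was limma (3.58.1) on log2(calibrated reads + 1), its variance prior following the mean level, within each line, after edgeR's (4.0.16) filterByExpr on the recovered reads. This scale understates changes at low values. Adjusted p-values are Benjamini-Hochberg over all tested promoters. Differences between lines were interaction terms. Depth was 1.49 to 3.03 M promoter reads a library. Symbols were matched for 99.1% of identifiers, and base composition for 20630 promoters came from GRCm38.p6, the build of mm10.

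The members and lists were chosen with earlier results of these data known. The rule named Rspo4 in every line and the 4 other genes with the smallest unadjusted limma p in each line, and any member by its level. No p is given for Kdm2a/b-JmjC, the contrast that chose the group. Alternatives were TMM scaling, a pseudocount of 5, no filter, edgeR's quasi-likelihood test and DESeq2 (1.42.0) on recovered reads, a replicate block and leaving out each library. The fits were also run on simulated counts with known size factors, which hold no calibration error between libraries. R 4.3.3 and pysam 0.24.0 were used. The sequence of 1 promoter is not reported here.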

Additional observations from a re-analysis of the deposited data

How the results depend on the processing

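In Kdm2a/b-JmjC the main counts were 13 promoters and 1 member past both thresholds, and they depended on every setting but the filter. They were 0 and 0 with TMM scaling, 71 and 2 with a pseudocount of 5, 114 and 2 with edgeR, and 1 and 0 with DESeq2; the second member in the larger counts was Wnt9a. Leaving out 1 library gave 0 to 607 promoters and 0 to 4 members. The member count was 0 without untreated replicate 1, without untreated replicate 2 or without tamoxifen replicate 2, 2 without untreated replicate 3 and 4 without tamoxifen replicate 1, where Wnt9a, Wnt10b and Tcf7l2 (NM_001142918) joined Rspo4. The group was chosen on the fall of Rspo4 in this line, so these member counts are a description and test nothing. The members' median log2 fold change was -0.10 with TMM and -0.39 to -0.23 with 1 library left out. In Kdm2a-CXXC that median was -0.067 with TMM and -0.33 to -0.16 with 1 library left out, and 0 to 43 promoters passed, 43 without tamoxifen replicate 3. In Kdm2a/b-CXXC 17 promoters passed with TMM and 0 to 8 with 1 library left out (5 when this was tamoxifen replicate 1, 8 when it was replicate 4), and the members' median was -0.014 with TMM and -0.052 to 0.16 with 1 library left out, the ends being tamoxifen replicates 1 and 4. In Kdm2b-CXXC 1 promoter passed with TMM, and the members' median was 0.033 with TMM and ran from -0.064 without tamoxifen replicate 1 to 0.32 without untreated replicate 1. No member passed in the CXXC lines under any of these settings. Of 20 named fold changes, 120 values with all libraries kept their direction, and 4 of 130 with 1 library left out reversed: Rspo4 in Kdm2a-CXXC (-0.096 without tamoxifen replicate 3) and in Kdm2b-CXXC (-0.033 without untreated replicate 2, -0.15 without tamoxifen replicate 1), and Znrf3 (NM_001290501) in Kdm2b-CXXC (-0.014 without untreated replicate 3). Their full ranges with 1 library left out were -0.096 to 0.35, -0.15 to 0.42 and -0.014 to 1.15. The cause of these shifts was not tested.

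Whether same-numbered libraries form pairs was not settled. The correlation of same-numbered deviations across promoters lay between -0.0090 and 0.073, and it cannot see shifts shared by all promoters of a library. In Kdm2a/b-JmjC 3 of 3 libraries correlated best with their own number. This was so for 2 of 4 in Kdm2a/b-CXXC, 2 of 3 in Kdm2a-CXXC and 1 of 3 in Kdm2b-CXXC. The library median over all promoters rose with the replicate number in both groups of Kdm2a-CXXC. In Kdm2b-CXXC replicate 1 was highest and replicate 2 lowest in both groups. In Kdm2a/b-JmjC and Kdm2a/b-CXXC the order differed between the groups. With the number as a replicate block, 62 promoters and 2 members passed in Kdm2a/b-JmjC, 188 promoters and 0 members in Kdm2a-CXXC, 5 and 0 in Kdm2b-CXXC and 0 and 0 in Kdm2a/b-CXXC, and 2 members, Axin2 and Fzd5, differed in change between Kdm2a-CXXC and Kdm2b-CXXC.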
